A study of Mus musculus with 15 samples.

Results

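The Slc1 family of membrane transporters was examined in YFP-labelled cells of the embryonic mouse cortex, through 6 of its members, Slc1a1 to Slc1a6. Slc1a7, a further glutamate carrier known from the retina, had 3 reads in all in the Mtg8 table and was not analysed here. Members were found by gene symbol, and all 6 were listed among the 26835 genes of the Lhx6 table and the 25714 genes of the Mtg8 table. The family was chosen from the same normalized counts that are described here, control against mutant in both tables, so the members' own differences are given as a description with intervals, and counts of members past a threshold stand only beside the share of all genes, with nothing read from them.

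The cells derive from the medial ganglionic eminence (MGE), a ventral forebrain region from which cortical interneurons migrate. An Nkx2-1-Cre transgene, active in MGE progenitors, switched on YFP from the R26R-YFP reporter in every group, and each library was prepared from the sorted cells of 1 embryo at E14.5 on a mixed C57BL6/CBA background. Lhx6 controls (Lhx6+/+, 4 libraries) were compared with Lhx6-/- mutants (5 libraries), and Mtg8 controls (Mtg8+/+, 3 libraries) with embryos labelled Mtg8-/- (3 libraries). The study's methods call the mutants littermates of controls, and the labels do not name litters. Lhx6 controls 1 and 2 share the stem of their library name with mutant 6, and Lhx6 mutants 2 and 5 share another. Mtg8 controls 1 and 2 share theirs with labelled mutant 2. What a stem stands for is not given in the sources used here. The labelled genotypes are those of whole embryos and not of the sorted cells alone, and YFP also marks any other MGE-derived cell present in the cortex. Lhx6 is a transcription factor that directs MGE interneuron fate, and Mtg8, a transcriptional cofactor, is the product of Runx1t1.

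Libraries held between 12218422 and 22053032 reads. Lhx6 itself lay between 236 and 495 normalized counts in the Lhx6 mutants and between 5812 and 8441 in their controls. Runx1t1 lay between 12250 and 13934 in the 3 libraries labelled Mtg8 mutant, above the 7938 to 10265 of their controls. For this reason the text calls them libraries labelled Mtg8 mutant. The study's methods list an Mtg8-LacZ knock-in line, and how that allele changes counts over Runx1t1 was not tested. Runx1t1 was also higher in the Lhx6 mutants, at 12227 to 26527 against 6394 to 8945 in their controls. The interneuron genes Sst and Npy separated controls from labelled mutants in the Mtg8 table, without overlap. Sst had 16695 ± 2080 normalized counts in controls and 6615 ± 1259 in labelled mutants (SD, n = 3 each; log2 difference -1.34, limma adjusted p = 0.0713). Npy had 5478 ± 668 and 2583 ± 871 (-1.13, limma adjusted p = 0.58). Limma called 0 of 16132 tested genes in that table. DESeq2 called 30 (0.186%), of which 2 were among the 15 tested interneuron genes. The paper, which used DESeq2, reports both Sst and Npy as significantly lower in its Mtg8 mutants. Library names come in 2 styles, with or without a leading date. In the Lhx6 table the controls and mutant 6 are undated and the other 4 mutants are dated, so among the dated libraries there is no control. Of the Mtg8 libraries controls 1 and 2 and labelled mutant 2 are dated, and control 4 and labelled mutants 3 and 4 are undated. Mutant 6 also had the highest sum over markers of proliferating cells, 11453 normalized counts against 5658 to 7107 in the controls and 5173 to 7537 in the other mutants. The interneuron identity genes Gad1, Gad2 and Dlx1 had control means of 2585, 3728 and 11653 normalized counts in the Lhx6 table. Neurod6, a gene of cortical pyramidal neurons, had a control mean of 9961 there, so genes of that lineage were measured in the sorted cells as well.

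Slc1 proteins couple the uptake of amino acids to the sodium gradient and fall into 2 classes. The glutamate carriers (here Slc1a1, Slc1a2, Slc1a3 and Slc1a6) import glutamate and aspartate together with sodium and a proton and release potassium, which clears the transmitter from around synapses. The neutral amino acid carriers (Slc1a4 and Slc1a5) exchange serine, alanine, cysteine or glutamine across the membrane. In the forebrain Slc1a2 (GLT-1) and Slc1a3 (GLAST) are best known from astrocytes and radial glia and Slc1a1 (EAAC1) from neurons. Outside it Slc1a6 (EAAT4) is best known from cerebellar Purkinje cells.

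One codon near the C-terminal end of the coding sequence marks this division, and its surroundings are shown because they tell the classes apart by sequence. Each stretch holds 20 codons of the principal transcript in GENCODE M21 (GRCm38), spliced across 2 exons, and the capitals mark the codon that aligns with the arginine of the substrate site in Slc1a2.
Slc1a2: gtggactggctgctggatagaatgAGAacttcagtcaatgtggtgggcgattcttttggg
Slc1a3: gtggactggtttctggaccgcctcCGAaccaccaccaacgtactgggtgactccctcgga
Slc1a1: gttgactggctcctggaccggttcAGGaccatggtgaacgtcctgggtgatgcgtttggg
Slc1a6: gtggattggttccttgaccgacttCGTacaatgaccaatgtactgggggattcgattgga
Slc1a4: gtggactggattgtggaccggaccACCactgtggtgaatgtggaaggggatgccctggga
Slc1a5: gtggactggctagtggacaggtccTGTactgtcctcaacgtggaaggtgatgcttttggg

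The codon in capitals translates to arginine in the 4 glutamate carriers shown, to threonine in Slc1a4 and to cysteine in Slc1a5. It is residue 477 of the 572 in Slc1a2, 479 of 543 in Slc1a3, 446 of 523 in Slc1a1, 501 of 561 in Slc1a6, 459 of 532 in Slc1a4 and 481 of 555 in Slc1a5. The Slc1a2 stretch lies on the plus strand of chr2:102767054-102777472, where exons 9 and 10 of the 11 in transcript Slc1a2-202 carry it on both sides of an intron. Translated and aligned over their whole length, the 4 glutamate carriers shared 46.4% to 69.5% of aligned residues with each other, with Slc1a3 and Slc1a6 the closest pair. Slc1a4 and Slc1a5 shared 59.5%. Between the classes identity ran from 40.0% to 46.5%, and Slc1a2 had the lowest of these values, 40.0% with Slc1a5 and 40.7% with Slc1a4.

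The first question was how the family was used in control cells, where the mutation plays no part. Levels were compared between genes as normalized counts per kb of annotated exon. In the 4 Lhx6 controls the order was Slc1a3 at 84.8 ± 17.4 (SD, n = 4), Slc1a4 at 62.7 ± 3.57, Slc1a2 at 22.6 ± 1.72, Slc1a1 at 20.7 ± 9.12, Slc1a5 at 17.5 ± 7.26 and Slc1a6 at 6.45 ± 1.90 normalized counts per kb. Slc1a3 was above Slc1a4, Slc1a4 above Slc1a2 and Slc1a5 above Slc1a6 in 4 of 4 libraries. Slc1a2 was above Slc1a1 in 3 of 4 libraries, by 1.92 ± 8.94 (SD of the difference), and Slc1a1 above Slc1a5 in 2 of 4, by 3.15 ± 11.3, so that both steps were smaller than their spread. The neighbours were set by sorting these same means, so the order is a description and no p-value is read from it. It also depends on the annotated exon lengths, 13133 bases for Slc1a2 and 3926 for Slc1a4. Before division by length Slc1a2 read 301, 286, 327 and 275 in these controls, against 227, 257, 256 and 245 for Slc1a4. The shares of the family given below use the same lengths.

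In the 3 Mtg8 controls Slc1a4 stood first at 130 ± 4.20 (SD, n = 3) normalized counts per kb, followed by Slc1a3 at 93.9 ± 33.6, Slc1a2 at 33.2 ± 3.51, Slc1a1 at 32.7 ± 5.66, Slc1a6 at 5.64 ± 2.54 and Slc1a5 at 5.13 ± 2.36. Slc1a4 was above Slc1a3 in 2 of 3 libraries, Slc1a2 above Slc1a1 in 1 of 3 and Slc1a6 above Slc1a5 in 2 of 3, and the last 2 steps, 0.528 ± 6.82 and 0.510 ± 3.98, were smaller than their spread. The steps from Slc1a3 to Slc1a2 and from Slc1a1 to Slc1a6 held in 3 of 3 libraries. The tables were normalized separately, so the difference in the position of Slc1a4 and Slc1a5 between control sets was not tested.

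**Figure D1:**
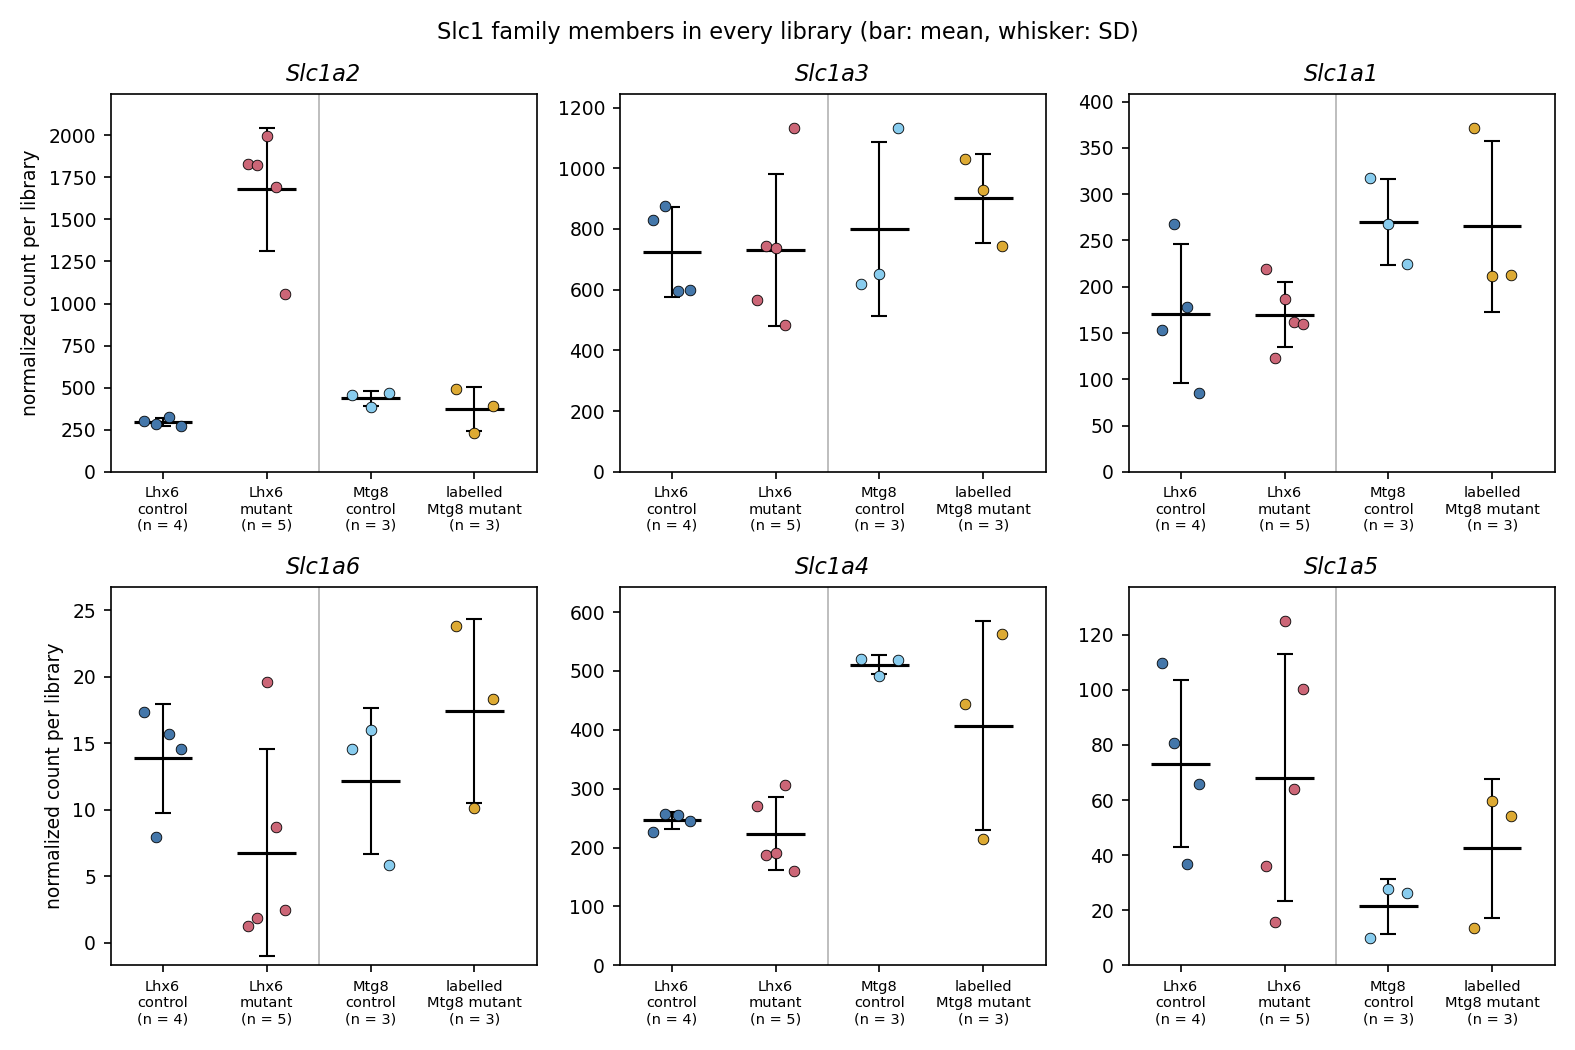
Normalized counts of each member by library (points) with mean (bar) and SD (whisker), for the Lhx6 comparison on the left (4 controls, 5 mutants) and the Mtg8 comparison on the right (3 controls, 3 labelled mutants); the vertical line parts the separately normalized tables. The Slc1a2 panel has its Lhx6 mutants between 1056 and 1992, above all 4 controls at 275 to 327, whereas the groups overlap in the other panels.

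Slc1a2 was the member that separated Lhx6 mutants from their controls. The 4 controls read 301, 286, 327 and 275 normalized counts, a narrow band with a coefficient of variation of 7.62%. Mutants 1, 2, 3 and 5 read 1831, 1825, 1992 and 1690, and mutant 6 read 1056. All mutants were above all controls, and even the lowest mutant was 3.23 times the highest control. Mean normalized counts were 297 ± 22.6 (SD, n = 4) in controls against 1679 ± 364 (SD, n = 5) in mutants, a ratio of 5.65. On the scale of log2(normalized count + 1) the difference was 2.46 with a standard error of 0.19 and a 95% interval from 2.06 to 2.87, which is a fold of 4.17 to 7.30.

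Read depth was ample for this gene, with 313 to 2139 reads per library. Of the 16727 genes tested, 61 had a larger increase. Slc1a2 was the 1 member called by limma at an adjusted p under 0.05, of 5 tested, in a table where 1.71% of tested genes were called. It was also the 1 member of 5 whose groups did not overlap, against 6.22% of all tested genes. Both counts come from the contrast by which the family was chosen, and nothing is read from them. More RNA per cell and more cells of a type, or less and fewer, cannot be told apart in such bulk samples, for Slc1a2 and for every gene below.

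Mutant 6 was the mutant closest to the controls, and it is the only one whose name has the style of the controls. Set against the 4 controls alone, it differed by 1.83 on the log2 scale for Slc1a2, a value from 1 mutant library. The controls that share its name stem, 1 and 2, read 301 and 286 against its 1056. Without it the difference was 2.62. The dated mutants have no dated control, so name style and genotype cannot be told apart for those 4 libraries.

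Slc1a2 spans chr2:102658659-102790784 on the plus strand, with 13133 bases of annotated exon, and starts 66.6 Mb from the start of Lhx6 on the same chromosome. Its nearest tested neighbours, chosen after its values were seen, were Fjx1, 206 kb away, and Cd44, 20.4 kb away. Fjx1 had 442 ± 163 (SD, n = 4) and 540 ± 229 (SD, n = 5) normalized counts (log2 difference 0.25, limma adjusted p = 0.74). Cd44, a surface receptor for hyaluronan, was near the detection limit with 6.59 ± 7.89 and 16.9 ± 12.5 (log2 difference 1.45, standard error 0.84, limma adjusted p = 0.499). Neither was called. An antisense gene, Gm13872, shares 189 exon bases with Slc1a2 and averaged 3.21 normalized counts, and whether counting used strand is not given in the sources used here.

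Among the Mtg8 libraries Slc1a2 was at 458, 383 and 467 normalized counts in the controls and at 494, 233 and 388 in the libraries labelled mutant. The highest and the lowest library were both labelled mutant, so the groups overlapped. The means were 436 ± 46.1 and 372 ± 131 (SD, n = 3 each), and the log2 difference of -0.29 had a 95% interval from -0.90 to 0.32. It was 0.01 without labelled mutant 3 and -0.53 without labelled mutant 2. That interval lies below the whole interval found in the Lhx6 table, but the tables were fitted apart and the contrast between them was not tested.

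Slc1a3, the second astroglial glutamate carrier and the family's most abundant member per kb in Lhx6 controls, gave a different picture. Controls read 830, 875, 595 and 598 normalized counts, and mutants 1, 2, 3, 5 and 6 read 567, 742, 736, 482 and 1133. Both the lowest and the highest library were mutants, the highest being mutant 6, the library with the lowest Slc1a2 of its group. Controls averaged 724 ± 149 (SD, n = 4) and mutants 732 ± 250 (SD, n = 5), with a log2 difference of -0.02 (standard error 0.24, 95% interval -0.53 to 0.49). Mutant 6 set against the controls alone gave 0.67, and without mutant 6 the difference was -0.20. The Mtg8 libraries gave Slc1a3 values of 619, 653 and 1132 in controls and 1031, 927 and 744 in libraries labelled mutant, a log2 difference of 0.21 with an interval from -0.35 to 0.77. That value was 0.05 without control 1 and 0.49 without control 4.

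The ratio of the 2 astroglial carriers within a library does not depend on how libraries were scaled. Slc1a2 reads per Slc1a3 read were 0.363, 0.327, 0.550 and 0.459 in the Lhx6 controls. The same ratio was 3.23, 2.46, 2.71 and 3.50 in mutants 1, 2, 3 and 5 and 0.932 in mutant 6. For the Mtg8 comparison it was 0.740, 0.587 and 0.412 in controls and 0.479, 0.252 and 0.522 in libraries labelled mutant.

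Slc1a1, the neuronal glutamate and cysteine carrier, had control values of 153, 268, 178 and 85.5 and mutant values of 219, 123, 186, 162 and 160 normalized counts in the Lhx6 table. The controls spread 3.13-fold from lowest to highest and enclosed every mutant. The log2 difference was 0.08, with an interval from -0.58 to 0.74, and leaving out 1 library gave -0.21 to 0.33. Its values among the Mtg8 libraries were 317, 268 and 224 against 372, 211 and 213, a difference of -0.06 (interval -0.67 to 0.55) whose sign was not stable. It was -0.33 without labelled mutant 2, 0.06 without control 1 and 0.07 without labelled mutant 3 or 4, and it turned to 0.01 with equal library totals, 0.13 with name style as a covariate and 0.20 with the replicate block. Slc1a1 (chr19:28835049-28913960, plus strand) shares 2631 exon bases with the antisense gene 4430402I18Rik, which averaged 8.56 and 6.01 normalized counts in the 2 tables.

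Slc1a6, the Purkinje cell glutamate carrier, sat at the edge of detection. It read 17.3, 7.98, 15.7 and 14.5 normalized counts in Lhx6 controls and 1.24, 1.85, 19.6, 8.72 and 2.48 in the mutants, from 1 to 21 reads per library. Mutants 1, 2 and 6 lay below every control, and mutant 3 lay above every control. Its mean over the table, 9.92, fell under the minimum of 10, so it was not tested there. A fit over all genes without that minimum gave a log2 difference of -1.42 with a standard error of 0.73. For Slc1a6 the Mtg8 libraries read 14.5, 16.0 and 5.87 against 23.8, 10.1 and 18.3 (log2 difference 0.52, interval -0.72 to 1.76). Without control 4 the difference was 0.10, and without labelled mutant 3 it was 0.84.

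Slc1a4 (ASCT1), the serine and alanine exchanger, was the steadiest member in controls. Its Lhx6 controls read 227, 257, 256 and 245 normalized counts and its mutants 271, 187, 191, 306 and 161, so that mutants lay on both sides of a narrow control band. The coefficient of variation was 5.70% in controls and 27.8% in mutants. The log2 difference was -0.18, with an interval from -0.65 to 0.29, and leaving out 1 library gave -0.31 to -0.08. The Mtg8 controls were as tight, at 521, 492 and 519 with a coefficient of variation of 3.23%, whereas the libraries labelled mutant read 444, 214 and 563. That contrast was -0.44 with an interval from -1.12 to 0.25. It rested on single libraries, at -0.03 without labelled mutant 3, the lowest, and -0.72 without labelled mutant 4.

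Slc1a5 (ASCT2), the glutamine exchanger, varied most among the Lhx6 mutants, of the tested members. Controls read 110, 80.6, 36.8 and 65.8 normalized counts and mutants 35.9, 15.7, 125, 63.9 and 100, a 7.93-fold range within the mutants. The log2 difference of -0.33 had an interval from -1.52 to 0.86, wide enough to hold a fold of 0.35 as well as one of 1.82, and without mutant 2 it was 0.10. The Mtg8 controls read 10.1, 27.7 and 26.4 and the libraries labelled mutant 13.6, 59.7 and 54.3, so 2 of 3, both undated, lay above all controls. The log2 difference was 0.83, with an interval from -0.47 to 2.13. Without control 1 it was 0.38, and without labelled mutant 2 it was 1.49.

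None of the 6 members was called in the Mtg8 table, where limma called 0% of 16132 tested genes and 886 (5.49%) had an unadjusted p under 0.05. None of the 6 had an unadjusted p under 0.05, and edgeR and DESeq2 on the recovered reads called none of them either, out of 1 (0.0062%) and 30 (0.186%) genes called in all. Groups overlapped for every member, against 10.2% of tested genes whose groups did not. As in the Lhx6 table these counts come from a contrast that was known when the family was chosen, and nothing is read from them.

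Within name styles, where 1 library stands against 2, the Mtg8 differences turned sign for 4 members. In the dated libraries, which share a name stem, and in the undated ones the log2 difference was 0.24 and -0.63 for Slc1a2, 0.70 and -0.45 for Slc1a3, 0.35 and -0.08 for Slc1a1, and -0.29 and 1.08 for Slc1a5. It kept its sign for Slc1a4, at -0.19 and -0.58, and for Slc1a6, at 0.61 and 1.09. The contrast between styles was not tested.

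**Figure D2:**
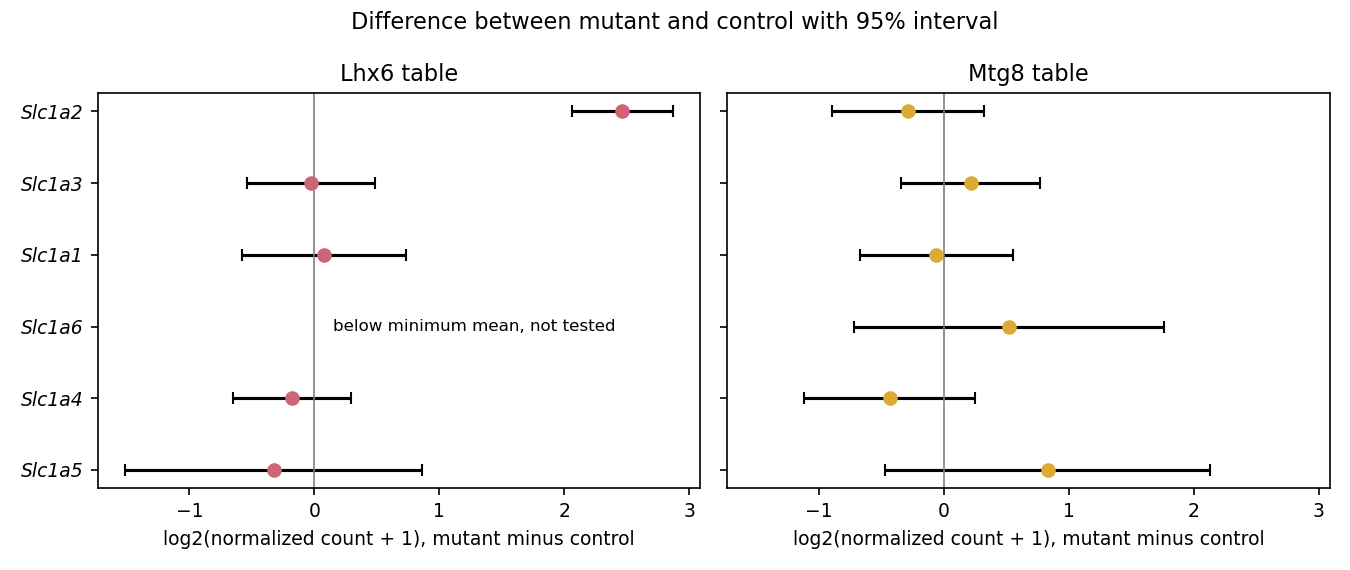
Differences in log2(normalized count + 1), mutant minus control, with 95% intervals (whiskers) for each member, with the Lhx6 comparison on the left and the Mtg8 comparison on the right; Slc1a6 was below the minimum mean in the Lhx6 table. The Slc1a2 interval in the Lhx6 table runs from 2.06 to 2.87. The intervals are not adjusted for the choice of the family from these contrasts, and nothing is read from which of them exclude zero.

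The make-up of the family differed between the Lhx6 groups along with Slc1a2. Summed per kb, the 6 members came to 215 ± 27.7 (SD, n = 4; range 186 to 245) normalized counts in Lhx6 controls and 310 ± 21.9 (SD, n = 5; range 293 to 348) in mutants. Slc1a2 supplied 10.7% ± 1.61 of that sum in controls and 41.1% ± 8.12 in mutants, with 26.9% in mutant 6 and 42.6% to 47.4% in the others. The share of Slc1a3 was 39.2% ± 3.32 in controls and 27.8% ± 10.2 in mutants, and that of Slc1a4 was 29.6% ± 4.32 and 18.4% ± 5.38, although their own levels overlapped between groups. Slc1a3 remained the leading member in mutant 6, at 44.4%, and Slc1a2 led in the other 4 mutants. Within the Mtg8 table Slc1a2 supplied 11.1% ± 0.921 in controls and 9.62% ± 1.74 in libraries labelled mutant (SD, n = 3 each), of sums of 301 ± 31.6 and 288 ± 55.2.

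**Figure D3:**
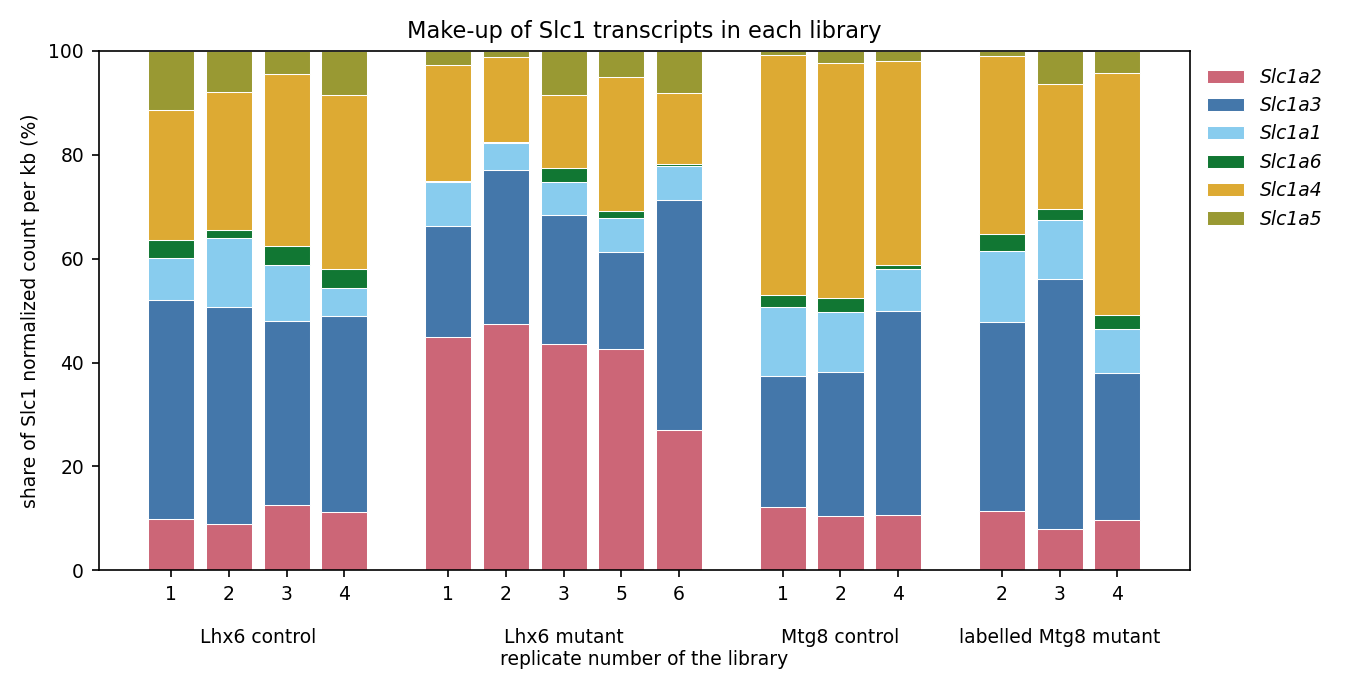
Share of each member in the summed Slc1 normalized counts per kb (vertical axis, percent) for every library, grouped by table and genotype label. Slc1a2 takes 8.89% to 12.6% in the Lhx6 controls and 26.9% to 47.4% in the Lhx6 mutants, and 7.88% to 11.4% in the libraries labelled Mtg8 mutant.

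The genes whose pattern was most like that of Slc1a2 over the 9 Lhx6 libraries were sought among all tested genes, by Pearson's r on log2(normalized count + 1). These points share 2 groups, so a high r mainly marks genes that separate the groups, and the differences of the genes found are a description. The 5 leading genes were Gabrg3 (r = 0.994), a GABA-A receptor subunit, Fign (r = 0.994), a microtubule-severing enzyme, Pnoc (r = 0.994), the precursor of the neuropeptide nociceptin, Csmd3 (r = 0.991), a large transmembrane protein, and Pbx3 (r = 0.986), a homeodomain transcription factor. Of the 6 genes Slc1a2 had the smallest difference. Gabrg3 went from a mean of 80.3 to 531 normalized counts (log2 difference 2.67, standard error 0.23). Pnoc went from 93.3 to 804 (3.06, 0.24), Fign from 49.9 to 581 (3.51, 0.23), and Csmd3 from 48.6 to 367 (2.85, 0.25). Pbx3 had the largest difference, from 65.4 to 2016 (4.94, 0.24).

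In mutant 6 Slc1a2 and all 5 of these genes were at their lowest among the mutants. Gabrg3 read 347 there against 412 to 714 in the other mutants, and Pnoc 453 against 793 to 1001. The 5 genes were chosen for their likeness to Slc1a2 over these same libraries, mutant 6 included. Their shared low follows in part from that choice, and nothing is read from it. In the Mtg8 table the same genes differed by 0.12 (Gabrg3), 0.46 (Fign), 0.00 (Pnoc), -0.12 (Csmd3) and 1.42 (Pbx3) on the log2 scale, and limma called none of them, as it called no gene there. Pbx3 was at 131, 96.5 and 147 normalized counts in the libraries labelled Mtg8 mutant and at 38.0, 55.5 and 44.0 in their controls, whereas Slc1a2 overlapped. The paper, which used DESeq2, reports Pbx3 among the genes upregulated in both mutants. It could not detect that upregulation by in situ hybridization.

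**Figure D4:**
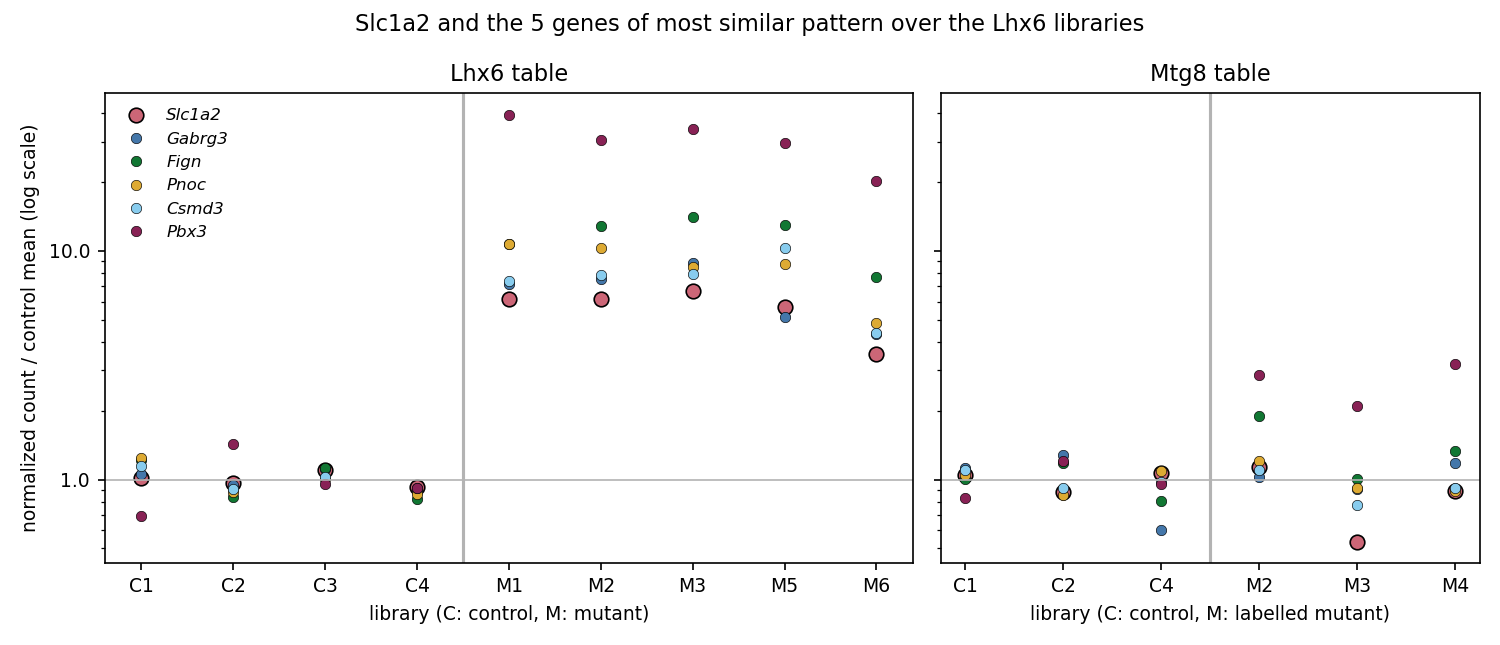
Normalized count of Slc1a2 and of the 5 genes most like it, divided by the gene's control mean (logarithmic axis), for each library, by table. In the Lhx6 table, on which the 5 genes were chosen, all 6 genes are above their control mean in every mutant and lowest among the mutants in M6. In the Mtg8 table Slc1a2 stays at 0.536 to 1.13 times its control mean in the libraries labelled mutant.

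Once group means were removed, a different set had the highest r with Slc1a2. Cacng2, an auxiliary subunit of AMPA-type glutamate receptors, came first (r = 0.991 over 9 libraries), followed by Kcns2, Ttc9 and Ctu1 (r from 0.970 to 0.973). Cacng2 read 1101 normalized counts in mutant 6 and 2007 to 2392 in the other mutants, and Kcns2 read 1.24 in mutant 6. Each of these 4 genes had its lowest value of the 9 libraries in mutant 6, and the order was not recomputed without that library. For Slc1a3 the genes of most similar level were Pdpn (r = 0.882), a surface glycoprotein of glial and other cells, Rpl9-ps8, Mcm2, a replication licensing factor (r = 0.869), Ctnna1 and Ppp1r35. With group means removed they were Utp20 (r = 0.955), Dctd, Gm13365, A930005G22Rik and Gm11991. None of these 10 genes was called by limma in the Lhx6 table.

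The genes around the family were read through 6 lists, each as its count of calls and its median, beside the median of all tested genes (-0.04 for the Lhx6 and -0.01 for the Mtg8 comparison, log2). Of the listed genes tested, limma, edgeR and DESeq2 each called 0 in every list and in both tables, and for lists this short nothing is read from a count of 0. Of all genes tested in the Lhx6 table limma called 1.71%, edgeR 1.67% and DESeq2 4.76%, and 12.7% had an unadjusted limma p under 0.05. That p was under 0.05 for 6 listed genes there, among them Gpt, Slc6a17, Slc7a1, Atp1b1 and Sgk1. Among the Mtg8 libraries it was under 0.05 for 5, Psat1, Phgdh, Atf5, Ddit4 and Sgk1, which is 4 of 12 tested amino acid response genes, 2 of 9 serine and glycine synthesis genes (Psat1 and Phgdh, on both lists) and 1 of 9 transporter partners. Of all genes tested there 5.49% had such a p, and limma called 0%, edgeR 0.0062% and DESeq2 0.186%.

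Genes of glutamate and glutamine handling were measured with 18 of 21 members tested in the Lhx6 table, of which 17 had a log2 difference below zero and Slc38a1 one above. Their median was -0.16, and 15 of 18 lay below the median of all genes. Slc7a11, which exports glutamate in exchange for cystine, had the highest level per kb of the list, 662 in Lhx6 controls, with 9218 ± 3106 (SD, n = 4) and 8160 ± 3378 (SD, n = 5) normalized counts. Glul, the glutamine synthetase of astroglia, had 708 ± 112 and 621 ± 129 normalized counts (log2 difference -0.20, standard error 0.19, limma adjusted p = 0.669). Against this, 13 of 18 members were above zero in the Mtg8 comparison, with a median of 0.13.

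Genes of the serine and glycine synthesis list were below zero in 9 of 9 in the Lhx6 table. Their median was -0.15, and 8 of 9 lay below the median of all genes. For Phgdh the log2 difference was -0.08, although its mean was higher in mutants. It had 733 ± 49.7 (SD, n = 4) normalized counts in controls and 752 ± 372 (SD, n = 5) in mutants. Gcsh led this list by level at 362 per kb. Among the Mtg8 libraries 7 of the 9 were above zero, with a median of 0.44, and the sums did not overlap, at 3534 to 4460 normalized counts in controls and 4478 to 5113 in labelled mutants. Psat1 and Shmt2 were the members whose groups did not overlap, higher in labelled mutants, against 10.2% of all tested genes. In the same libraries markers of radial glia and astrocytes were above zero in 14 of 14 tested genes (median 0.60), with sums that did not overlap either, and their part in the values of this list was not tested. Psat1, the second enzyme of serine synthesis, had 719 ± 80.4 and 1016 ± 122 normalized counts there (SD, n = 3 each), with a limma adjusted p of 0.859.

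Other amino acid transporters were split in the Lhx6 table, with 10 of 19 above zero and a median of 0.09, and Slc7a6 led by level at 262 per kb. In the Mtg8 table their median of -0.02 turned to 0.01 with TMM factors and to 0.05 with equal library totals. Genes of the amino acid response had a median of -0.05 over 12 tested genes in the Lhx6 table. Among the Mtg8 libraries it was 0.19, with 10 of 12 above zero. Sodium-potassium pump genes, whose ion gradient drives uptake, had medians of -0.07 and 0.17 over 6 tested genes, with 2 of 6 at an unadjusted p under 0.05 in the Lhx6 table (12.7% of all tested genes), and Atp1b3 had the highest level at 981 per kb. Partner genes of the glutamate transporters had a median of 0.03 over 9 genes in the Lhx6 table, which turned to -0.01 with TMM factors and -0.03 with equal totals, and -0.09 in the Mtg8 table. Arl6ip1 led that list at 2488 per kb.

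Since Slc1a2 and Slc1a3 are known from astroglia, marker genes of radial glia and astrocytes were read beside them. Of 19 listed genes 16 were tested in the Lhx6 table, 11 were above zero with a median of 0.18, and limma, edgeR and DESeq2 called 0, with 3 (Sox9, Ptprz1 and Gli3) at an unadjusted p under 0.05, against 12.7% of all tested genes at that p and 1.71%, 1.67% and 4.76% called by the 3 tools. Their summed normalized counts overlapped, from 11892 to 14067 in controls and from 11219 to 20005 in mutants, the highest being mutant 6, which had the least Slc1a2 of the mutants. The list held genes at very different levels. Aqp4 averaged 1.40 and 1.98 normalized counts, Gfap 2.80 and 0.248, S100b 1.35 and 3.53, and Aldh1l1 7.65 and 13.3. The log2 difference of Aldh1l1 was -0.98, below zero although its mean was higher in mutants, where the SD was 27.2. Aldoc, a glycolytic enzyme of astrocytes, averaged 1325 and 1162, and Fgfr3, a growth factor receptor of radial glia and astrocytes, 131 and 172. Gja1, the connexin of radial glia and astrocytes, had 365 ± 84.2 and 340 ± 229 normalized counts. Several abundant members had higher means in mutants, none of them called. Ptprz1, a receptor phosphatase, averaged 998 and 1414 (log2 difference 0.53) and its groups did not overlap, as for 6.22% of all tested genes. Those of the transcription factors Sox9, with 1427 and 2055 (0.51), and Gli3, with 456 and 835 (0.75), overlapped, as did the intermediate filament genes Nes (0.44) and Vim (0.30).

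In the Mtg8 table the radial glia and astrocyte list was above zero in 14 of 14 tested genes with a median of 0.60. Its sums ran from 7926 to 9773 in controls and from 11178 to 15892 in libraries labelled mutant and did not overlap, whereas Slc1a2 and Slc1a3 did. Limma, edgeR and DESeq2 called 0 of the 14, and 6 had an unadjusted p under 0.05, as did 5.49% of all tested genes. Interneuron genes were below zero in 13 of 15 tested, with a median of -0.44 and sums of 74632 to 80904 in controls and 44967 to 62080 in labelled mutants, without overlap. Limma and edgeR called 0 of the 15 and DESeq2 2, where DESeq2 called 0.186% of all tested genes, with 7 at an unadjusted p under 0.05. Pyramidal genes were above zero in 11 of 11, with a median of 0.50 and overlapping sums of 5843 to 14267 and 9146 to 23030. Limma and edgeR called 0 of the 11 and DESeq2 2, with 4 at an unadjusted p under 0.05. Markers of interneurons of the caudal ganglionic eminence (CGE) were above zero in 5 of 6, with a median of 0.58 and sums of 1632 to 1702 in controls and 1759 to 2560 in labelled mutants, and markers of proliferating cells in 5 of 6, with a median of 0.36 and sums of 6024 to 6038 and 6481 to 7703, both without overlap. Limma and edgeR called 0 in either list, DESeq2 1 CGE marker, and 2 CGE and 1 proliferation markers had an unadjusted p under 0.05. Oligodendrocyte lineage genes were above zero in 5 of 5, with a median of 2.02 at low levels and overlapping sums of 133 to 439 and 177 to 719, and Pdgfra and Olig2 had an unadjusted p under 0.05. Red blood cell genes were above zero in 5 of 5 (median 0.35, 1 at an unadjusted p under 0.05), vascular genes in 4 of 5 (median 0.22) and microglia genes in 4 of 5 (median 0.37), with overlapping sums. Limma, edgeR and DESeq2 called 0 in these 4 lists. The part of all these lists in the Slc1 values was not tested.

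Some interneuron markers were called in the Lhx6 table, beside Slc1a2. Of 15 tested interneuron genes limma called 6, as did edgeR and DESeq2, where 1.71% of all tested genes were called by limma. The other 9 were not called, and the sums over the list overlapped, at 48160 to 58709 normalized counts in controls and 33289 to 55720 in mutants. Among those called, Dlx5 (log2 difference 1.02, adjusted p = 0.000719) and Dlx6 (1.66, adjusted p = 0.000979) were higher, and Sst (-3.06, adjusted p = 9.01e-08), Satb1 (-1.56, adjusted p = 0.000645) and Npy (-1.61, adjusted p = 0.00153) were lower. Of 6 tested CGE markers 3 were above zero and 3 below with a median of 0.14, and limma called 2, edgeR 1 and DESeq2 4, against 1.71%, 1.67% and 4.76% of all tested genes. By limma Adarb2 was higher (4.33, adjusted p = 6.9e-06) and Htr3a lower (-1.65, adjusted p = 0.0451). The CGE sum ran from 1348 to 1684 normalized counts in controls and from 2317 to 2995 in mutants, without overlap. Pyramidal markers summed to 16995 to 22536 in controls and 13473 to 18357 in mutants, with 0 of 11 called by limma or edgeR, 1 by DESeq2 (4.76% of all tested genes) and 5 at an unadjusted p under 0.05 (12.7% of all tested genes). Oligodendrocyte lineage genes were above zero in 3 of 4 (median 0.49), vascular genes in 3 of 4 (0.35), microglia genes in 3 of 5 (0.48) and proliferating cell genes in 4 of 6 (0.13), and red blood cell genes were below zero in 5 of 5 (-0.67). The sums of these 5 lists overlapped between groups, limma, edgeR and DESeq2 called 0 in them, and Pdgfra and Pecam1 had an unadjusted p under 0.05. The part of all these lists in the Slc1a2 difference was not tested.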

How the data were processed

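Sorted YFP+ cells of 15 embryos were sequenced as low-input RNA-seq. The authors' processing notes name fastp 0.20.1, STAR 2.7b, featureCounts 1.6.4 and DESeq2 on GRCm38.p6. Each library's signal, as deposited by the authors, is a normalized count (reads of a gene over a DESeq2 size factor), in 1 table for each comparison. Reads were recovered from the steps of these values, and 100% of values were whole within a tolerance of 0.01. Columns of the authors' own comparison (log2 fold change, standard error, statistic, p-value, adjusted p) were not used. Level per kb is the normalized count divided by the deposited exon length, times 1000.

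Each table was fitted alone with limma 3.58.1 (trend setting, R 4.3.3). Values were log2(normalized count + 1), and genes whose mean was under 10 were left out. Tests were two-sided with Benjamini-Hochberg adjustment at 0.05 over all genes tested. Fold changes on this scale understate those of low genes. edgeR 4.0.16 and DESeq2 1.42.0 on recovered reads were alternatives, as were other pseudocounts, filters, scalings, thresholds, a replicate block, name style as a covariate and each library left out. The script was tested on simulated data. Members and lists were chosen with earlier results of these data known. Named genes were the members, called list genes and the list gene of highest level per kb, and the 5 genes of highest r with Slc1a2 and Slc1a3; other named genes were chosen after their values were seen, and a few genes that the rule names are not reported here. Depth was 12218422 to 22053032 reads per library; the number of embryos limits precision, and reads carry no molecular identifiers. Coding stretches were translated with Biopython 1.88 and aligned with MAFFT 7.526; GENCODE M21 is an earlier release than the annotation the authors used, on the same build.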

Additional observations from a re-analysis of the deposited data

How the results depend on the processing

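The count of members called was 1 in the Lhx6 table under 21 of 21 alternatives and 0 in the Mtg8 table under 18 of 18, with edgeR and DESeq2 as the caller in 1 alternative each and limma in the others. Slc1a2 in the Lhx6 table lay between 1.83 and 2.62 on the log2 scale over 20 alternatives. These refit the contrast on which the family was chosen and are no independent support. The lowest value, 1.83, came with name style as a covariate, a fit in which mutant 6 alone is set against the controls and is assumed to vary like the other libraries; Slc1a3 went to 0.67 and Slc1a4 to -0.61 there, neither called. Leaving out 1 library gave 2.39 to 2.62 for Slc1a2. Uncalled members crossed zero under some alternatives, from -0.21 to 0.33 for Slc1a1, from -0.20 to 0.67 for Slc1a3 and from -0.71 to 0.55 for Slc1a5 in the Lhx6 table, and from -0.33 to 0.20 for Slc1a1 and from -0.53 to 0.05 for Slc1a2 in the Mtg8 table. Each of the 6 lists had 0 calls under every alternative, save the amino acid response genes of the Mtg8 table, where leaving out 1 library gave 0 to 1, the 1 being Ddit4 without labelled mutant 2. Over all genes the Lhx6 table had 286 calls, 57 with name style as a covariate and 796 with DESeq2, and the Mtg8 comparison had 0, and up to 100 with the replicate block.

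Replicate numbers are not stated to pair embryos, and deviations of same-numbered libraries correlated at -0.15, 0.00 and 0.07 in the Lhx6 table and at 0.14 and 0.16 in the Mtg8 table. With the replicate block Slc1a2 differed by 2.62 and was called in the Lhx6 table, and by 0.05 in the Mtg8 table, with 1 and 0 members called. The block gave 0.03 for Slc1a3, -0.02 for Slc1a4, 0.02 for Slc1a5 and 1.02 for Slc1a6 in the Mtg8 table. Slc1a6 had 1 to 24 reads per library, and counting error was not separated from the spread between embryos.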
